A study of Mus musculus with 8 samples.

Results

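Connexins are the proteins of gap junctions, and 6 connexin genes, Gja1, Gja4, Gja5, Gjc1, Gjb2 and Gjb5, were followed in fully grown mouse oocytes. They were chosen by name, with Gja1 of granulosa cells to be set against Gja4 of the oocyte, and all probe sets that the array annotation pairs with exactly 1 of these symbols were taken. These were 12 probe sets of the 6 genes, out of 34945 probe sets of 18193 genes with 1 symbol. The choice was made with earlier results of these arrays known, in particular the low values of Gja1 in milrinone, so the differences of the 6 genes between the groups are a description.

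The samples were 4 arrays of germinal vesicle (GV) stage oocytes cultured for 48 h in milrinone and 4 arrays of untreated GV oocytes. GV oocytes are immature oocytes whose nucleus is still intact, and milrinone is an inhibitor of cAMP phosphodiesterase that keeps them arrested. Both groups carry the same label of GV oocytes and gave total RNA, of which 15 µg of biotinylated cRNA was put on each array. The labels give no strain, age or genotype, no culture without milrinone and no word on how the surrounding cells were removed. Effects of the drug, of being cultured and of time therefore cannot be told apart, and nothing says whether replicates came from separate animals, so the spread between arrays may be technical.

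A connexin hemichannel in the membrane of one cell docks with a hemichannel of its neighbour to form a channel for ions and small molecules. In the ovary, connexin 43, the product of Gja1, couples granulosa cells to each other. Connexin 37, the product of Gja4, is needed at the junctions between the oocyte and the granulosa cells. These channels carry nutrients and the cyclic nucleotides that hold the oocyte in meiotic arrest. Gjc1 encodes connexin 45, Gjb2 connexin 26, Gja5 connexin 40 and Gjb5 connexin 31.1. Gja5 is known for its place in the heart and in arteries, Gjb2 for its place in the inner ear and the liver, and Gjb5 for its place in skin.

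The sequences before the annotated starts of Gja1 and Gja4 are shown because these genes are the pair set against each other. Each is the 250 bases before the start in RefSeq, build GRCm38.p6, at chr10:56377050-56377299 on the plus strand for Gja1 and at chr4:127314040-127314289 on the minus strand for Gja4. Capitals mark TGACG, the core of the cAMP response element, TGANTCA, the AP-1 motif, and CANNTG, the E-box, searched on both strands.
Gja1: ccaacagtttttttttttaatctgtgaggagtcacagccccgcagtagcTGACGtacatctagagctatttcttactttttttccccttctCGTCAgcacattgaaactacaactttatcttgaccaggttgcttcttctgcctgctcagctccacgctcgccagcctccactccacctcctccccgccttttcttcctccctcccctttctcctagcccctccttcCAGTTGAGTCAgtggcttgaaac
Gja4: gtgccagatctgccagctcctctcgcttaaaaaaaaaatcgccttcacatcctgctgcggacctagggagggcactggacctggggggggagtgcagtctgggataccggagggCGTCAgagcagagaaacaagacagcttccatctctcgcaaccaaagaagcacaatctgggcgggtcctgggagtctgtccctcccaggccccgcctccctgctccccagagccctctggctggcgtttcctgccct
The Gja1 sequence held 2 TGACG cores, and 1 AP-1 motif that overlaps the E-box beside it, whereas the Gja4 sequence held 1 TGACG core and neither of the other motifs. Among 32851 such windows in the table, TGACG was in 17.8%, TGANTCA in 6.75% and CANNTG in 66.2%. The full cAMP response element, TGACGTCA, was in 1.55% of them and in neither of these windows. Of the 6 genes, 5 had a window in the table. The matches describe letters only.

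The values are deposited intensities on a linear scale, with 48.4% to 58.7% of an array's cells left empty. A probe set counts as listed on an array that gives it a value. The signal behind an empty cell is unknown, so no fold is given where only 1 group has values. The milrinone arrays listed 18605 to 19448 of 45101 probe sets and the untreated arrays 18888 to 23269. All 18 probe sets of 15 oocyte genes, among them Gdf9 and Zp3, were listed on all 8 arrays. Of 43 probe sets of 23 granulosa, cumulus and theca genes, 9 to 15 were listed on the milrinone arrays and 22 to 32 on the untreated arrays, so the untreated samples, labelled as oocytes, also held markers of their follicle cells. Of 21 probe sets of blood, stromal and endothelial genes, 3 to 5 were listed on the milrinone arrays and 8 to 14 on the untreated arrays. Untreated 1 stood apart, with a median r of 0.933 over its pairs with other arrays, while that of the remaining 7 ran from 0.969 to 0.981. The b-Actin control, a sign of RNA integrity and labelling, had 3' over 5' ratios of 11.6 to 20.4 in milrinone and 6.87 to 13.1 in untreated samples, while those of the Gapdh control were 6.09 to 8.25 in milrinone and 6.23 to 7.68 in untreated samples. The part of RNA quality in the results below was not tested.

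Gja1 was far lower in the milrinone samples, and Gja4 had nearly the same intensity in both groups. Gjb2 had higher values on all milrinone arrays but was not called, Gjc1 was dim and overlapped between the groups, and Gja5 and Gjb5 were almost without values. The brightest probe set of Gja1 (1437992_x_at) averaged 194 ± 167 in milrinone and 5109 ± 2824 in untreated samples, and that of Gja4 averaged 9244 ± 290 in milrinone and 9397 ± 875 in untreated samples (SD, n = 4 each).

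**Figure D1:**
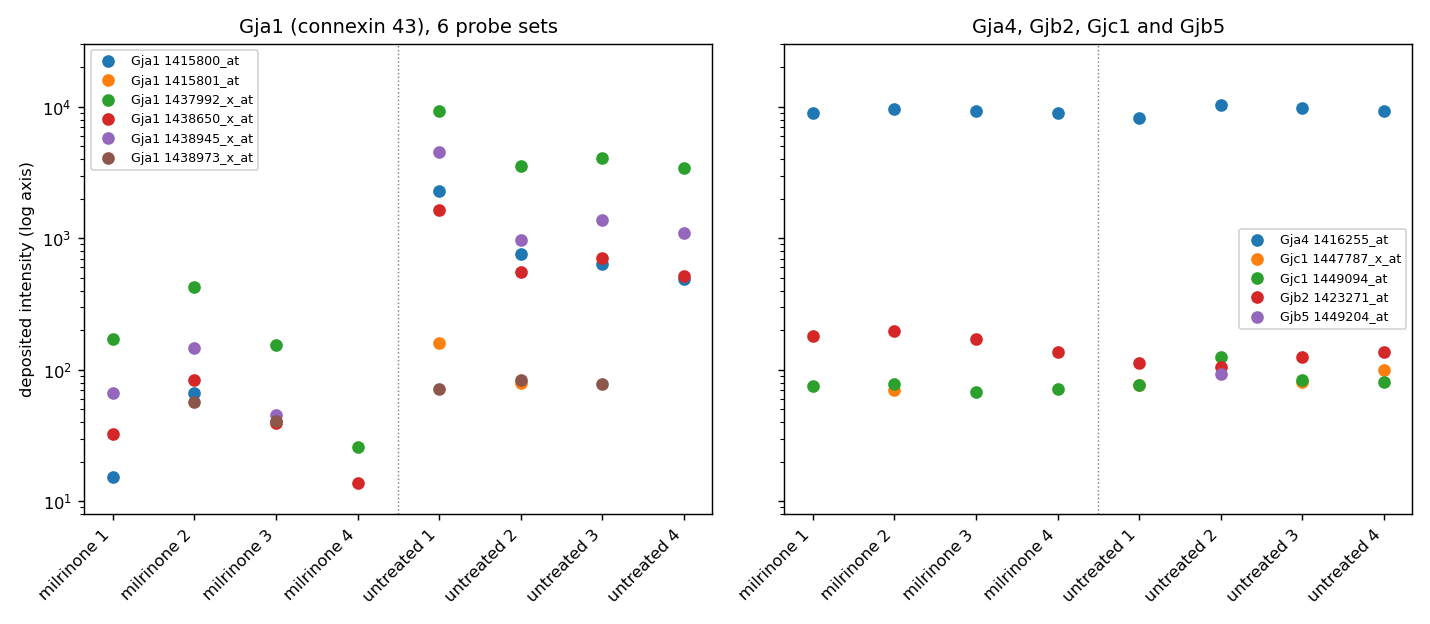
Deposited intensity (log axis) of each listed probe set of Gja1 (left panel) and of Gja4, Gjb2, Gjc1 and Gjb5 (right panel) on the 4 milrinone and 4 untreated arrays. Each point is 1 probe set on 1 array and an empty cell has no point. The brightest Gja1 probe set lies between 25.8 and 426 in milrinone and between 3430 and 9322 in untreated samples, while Gja4 lies between 8259 and 10283 on all 8 arrays.

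Gja1 had 6 probe sets. The brightest, 1437992_x_at, had intensities of 171, 426, 155 and 25.8 on milrinone arrays 1 to 4, against 9322, 3574, 4109 and 3430 on untreated arrays 1 to 4. Every milrinone array lay below every untreated array. A suffix with x marks probe sets whose probes may also match other transcripts, and 4 of the 6 carry it. The second of these, 1438650_x_at, had 32.4, 84.2, 39.2 and 13.9 in milrinone, against 1636, 554, 704 and 515 in untreated samples. The third, 1438945_x_at, had 66.4, 147 and 45.4 on milrinone 1, 2 and 3 and was empty on milrinone 4, against 4560, 967, 1386 and 1098 in untreated samples. In both the groups were again apart.

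The other 3 probe sets of Gja1 had too few values for the fit. Of these, 1415800_at, which has no such suffix, had 15.4 and 66.8 on milrinone 1 and 2 and was empty on milrinone 3 and 4, against 2279, 754, 637 and 488 in untreated samples. The dimmer 1438973_x_at had 57.1 and 40.7 on milrinone 2 and 3, against 71.8, 83.3 and 78.7 on untreated 1, 2 and 3, a far smaller gap. Finally, 1415801_at was empty on all milrinone arrays and had 159 and 79.7 on untreated 1 and 2. The number of Gja1 probe sets listed was 4, 5, 4 and 2 on milrinone arrays 1 to 4, and 6, 6, 5 and 4 on untreated arrays 1 to 4.

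The same array was the highest of its group in most probe sets of Gja1. Milrinone 2 was the highest of its group in 5 of the 5 probe sets with a milrinone value, and untreated 1 was the highest of its group in 5 of 6. For the brightest probe set the highest milrinone array had 16.5 times the intensity of the lowest, and untreated 1 had 2.61 times the median of the other untreated arrays. The exception was 1438973_x_at, in which untreated 1 was the lowest listed value of its group.

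Intensities were compared as log2(intensity + 16) with limma over all probe sets that had a value on 3 or more arrays of each group, and a probe set is called at a Benjamini-Hochberg adjusted p under 0.05. The fit held 16288 probe sets, of which 0.117% were called lower and 0% higher in milrinone, and 6 of the 12 connexin probe sets entered it. Called lower were 3 of these 6, all of Gja1, and 0 were called higher. Of the 6, 5 had a difference below 0, with a median of -2.06, while 38% of all fitted probe sets were below 0 and their median was 0.06. Since Gja1 was chosen from this contrast and its probe sets measure 1 gene, the count adds no support. The log2 difference, milrinone minus untreated, was -4.91 (SE 0.60, 95% interval -6.24 to -3.57) for 1437992_x_at, -3.86 (SE 0.41, -4.78 to -2.95) for 1438650_x_at and -4.12 (SE 0.53, -5.30 to -2.94) for 1438945_x_at, with milrinone 4 missing from the last. The limma adjusted p was 0.0109, 0.00482 and 0.0200 in that order. Without milrinone 3 only 1438650_x_at stayed under the threshold (limma adjusted p = 0.0256), and the brightest probe set had an adjusted p of 0.0527 at a difference of -4.95. The third probe set also missed the threshold without milrinone 1 (adjusted p = 0.143) and without untreated 3 (adjusted p = 0.0707). Without untreated 1, the array with the most Gja1, the differences were -4.57, -3.50 and -3.62, and all 3 were called. In RNA of whole samples, fewer cells of a type and less RNA per cell cannot be told apart.

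**Figure D2:**
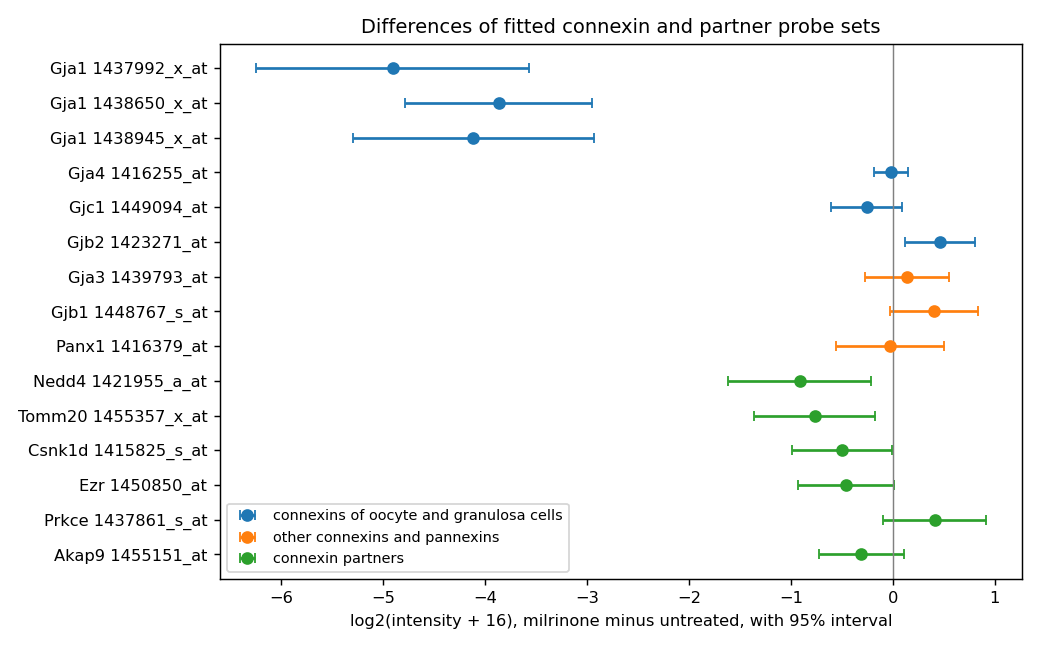
Difference in log2(intensity + 16), milrinone minus untreated, with its 95% interval (bars) from the limma fit, for the 6 fitted probe sets of the 6 connexin genes, 3 fitted probe sets of other connexins and pannexins, and 6 connexin partners. The 3 Gja1 probe sets lie between -4.91 and -3.86, and the next lowest plotted difference is that of Nedd4, at -0.91.

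Gja4 had a single probe set (1416255_at), with intensities of 9037, 9615, 9333 and 8990 on the milrinone arrays, against 8259, 10283, 9828 and 9216 on the untreated arrays. All 4 milrinone values lay inside the range of the untreated ones. The difference was -0.02 (SE 0.08, 95% interval -0.19 to 0.15, limma adjusted p = 0.938). The interval bounds what could have gone unseen on this scale and does not show that the level was the same. The highest values of each array, 23742 to 24974, were well above Gja4. The direction of the Gja4 difference was not settled: it was 0.19 with the arrays centred on ribosomal protein genes, 0.03 without untreated 2 and 0.0039 without untreated 3.

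Setting Gja1 against Gja4 on each array largely removes any factor that scales a whole array. The log2 value of Gja1 minus that of Gja4 was -5.59, -4.45, -5.77 and -7.75 on the milrinone arrays, against 0.17, -1.52, -1.25 and -1.42 on the untreated arrays. These offsets depend on the probes, and only their change between arrays can be read. The group means were -5.89 ± 1.37 and -1.01 ± 0.79 (SD, n = 4 each), a change of -4.89 in milrinone relative to untreated, and -4.49 without untreated 1. The groups did not overlap, and milrinone 4 and untreated 1 were the extremes.

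Gjb2, whose single probe set (1423271_at) was dim, had 182, 198, 171 and 137 in milrinone, against 114, 105, 126 and 136 in untreated samples. The milrinone values were all above the untreated ones, by a narrow margin between milrinone 4 and untreated 4. Among all fitted probe sets 5.06% were higher without overlap. The difference was 0.46 (SE 0.16, 95% interval 0.12 to 0.81, limma adjusted p = 0.469) and was not called, although its unadjusted p was 0.0138, a level that 5.62% of all fitted probe sets reached on the higher side. It was 0.23 after quantile normalization, which moved the median of all fitted probe sets to -0.13, and 0.67 with centring on ribosomal protein genes, which moved it to 0.28.

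Gjc1 had 74.8, 77.5, 67.4 and 72.1 in milrinone, against 76.6, 125, 84.1 and 81.0 in untreated samples, with its probe set 1449094_at. The groups overlapped only in milrinone 2 and untreated 1, and untreated 2 was well above the rest. The difference was -0.26 (SE 0.16, 95% interval -0.61 to 0.09, limma adjusted p = 0.577), and -0.12 without untreated 2. Its other probe set, 1447787_x_at, was listed on milrinone 2 at 70.2 and on untreated 1, 3 and 4 at 77.2, 80.7 and 99.99, and could not be fitted. Among Gja4, Gjb2 and Gjc1 together, 0 of 3 fitted probe sets were called by limma and 1, that of Gjb2, had an unadjusted p under 0.05.

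Gja5 had 1 probe set (1422192_at), which was empty on all 8 arrays. Gjb5 had 1 (1449204_at), which was listed on untreated 2 alone, at 93.7. Neither gives a comparison, and both lay among probe sets of which 35.5% over the whole array were empty on all 8. Of the 12 connexin probe sets, 6 were listed on more untreated than milrinone arrays and 0 on more milrinone arrays, against 18.8% and 8.78% of all 45037 probe sets that are not controls. Of those 6, 4 belonged to Gja1, 1 to Gjc1 and 1 to Gjb5.

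**Figure D3:**
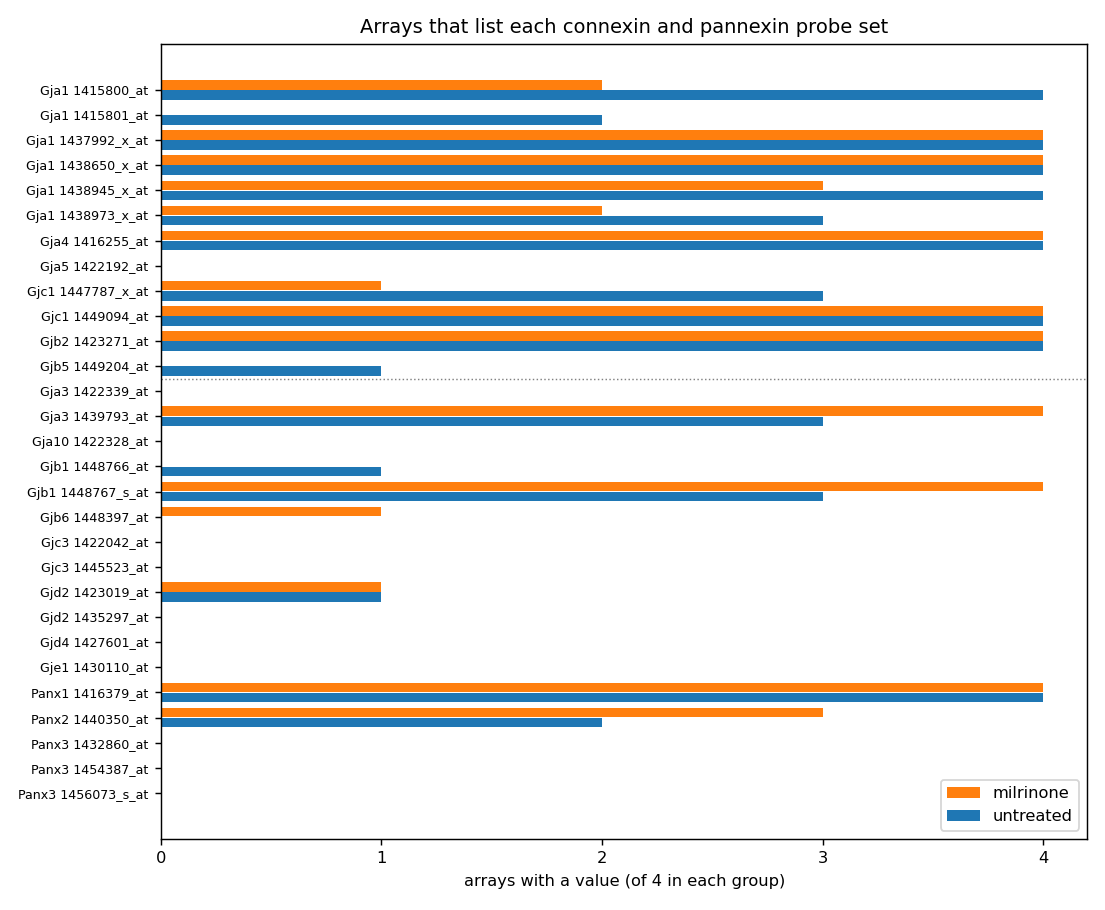
Number of arrays, of 4 in each group, that list each of 12 probe sets of the 6 connexin genes (above the dotted line) and of 17 probe sets of other connexins and pannexins (below it). Gja4, Gjb2, Panx1 and 1 probe set of Gjc1 are listed on all 8 arrays, as are 2 of Gja1.

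The remaining connexin and pannexin genes were mostly empty. Of 17 such genes looked for, 11 had a probe set with 1 symbol, 17 probe sets in all, and 10 of these were empty on all 8 arrays, among them those of Gja10, Gjc3, Gjd4, Gje1 and Panx3. In the fit were 3, of which 0 were called and 0 had an unadjusted p under 0.05 (limma). Gja3, known for its role in the lens, had 109, 117, 124 and 114 in milrinone, against 77.4, 132 and 108 on untreated 2, 3 and 4, a difference of 0.14 (SE 0.18, adjusted p = 0.791). Gjb1, the main connexin of hepatocytes, had 246, 284, 290 and 183 in milrinone, against 165, 196 and 189 on untreated 1, 2 and 4, a difference of 0.40 (SE 0.19, adjusted p = 0.520). Panx1, which encodes a channel protein that does not form gap junctions of the connexin kind, had 660, 526, 333 and 626 in milrinone, against 451, 555, 718 and 437 in untreated samples, a difference of -0.03 (SE 0.24, adjusted p = 0.971). Values of all 3 overlapped between the groups. Panx2, another pannexin gene, had 77.0, 40.5 and 53.7 on milrinone 2, 3 and 4 and 49.97 and 48.8 on untreated 3 and 4, too few for the fit.

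Among 26 genes for proteins that bind, anchor, modify or degrade connexins, 23 had a probe set with 1 symbol, 62 in all, and 34 probe sets of 16 genes were fitted. By limma 0 of the 34 were called, and 5 had an unadjusted p under 0.05. These 5 were all lower and came from Nedd4, Tomm20 and Csnk1d. Among all fitted probe sets 4% were lower and 5.62% higher at that level. The median difference of the 34 was -0.01, against 0.06 over all fitted probe sets. It became 0.20 with centring on ribosomal protein genes. Tjp1, which encodes the scaffold protein ZO1 that binds connexin 43, had 3628 to 4211 in milrinone and 3166 to 4407 in untreated samples. Cdh1, which encodes the adhesion protein E-cadherin, had 3038 to 3597 in milrinone and 2323 to 3170 in untreated samples. Cdh2, which encodes N-cadherin, had 1052 to 1642 in milrinone and 701 to 2017 in untreated samples with its brighter probe set. The groups overlapped in all 3 of these genes.

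The partner with the smallest p was Nedd4, a ubiquitin ligase that binds connexin 43, with 473, 429, 265 and 432 in milrinone, against 1538, 571, 588 and 612 in untreated samples (1421955_a_at). Its groups did not overlap, as in 2.74% of all fitted probe sets on the lower side, and its difference was -0.91 (SE 0.32, limma adjusted p = 0.472). The other probe sets of Nedd4 overlapped between the groups, at differences of -1.07 and -0.51. Each further partner is given by its probe set with the smallest p. Tomm20, a mitochondrial import receptor, differed by -0.76 and Ezr, which encodes the membrane linker ezrin, by -0.46. The kinase gene Csnk1d differed by -0.50, while its other probe sets ran from -0.28 to 0.22. Prkce, a protein kinase C gene, differed by 0.41 and Akap9, a kinase anchor gene, by -0.31, and adjusted p for these 5 ran from 0.472 to 0.573. Cav1, which encodes caveolin, was listed only in untreated samples, at 880, 135 and 203 on untreated 1, 2 and 3.

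The follicle cell markers that could be fitted were mostly lower in milrinone. Of the 43 granulosa, cumulus and theca probe sets, which leave out Gja1, 8 of 6 genes were fitted. By limma 1 was called lower, 0 were called higher, and 5, all lower, had an unadjusted p under 0.05. Of the 8, 7 had a difference below 0, with a median of -1.11. Among those 7, separate probe sets of Nr5a2 gave -0.62, -0.60 and -1.60. Among all fitted probe sets, 0.117% were called lower, 4% were lower at an unadjusted p under 0.05 and 38% had a difference below 0. The one called was that of Grem1, which encodes a BMP antagonist of cumulus cells, with 79.8, 96.1 and 54.2 on milrinone 1, 2 and 3, against 2639, 1106, 1697 and 5704 in untreated samples, a difference of -4.67 (SE 0.47, adjusted p = 0.00482). Inha, the inhibin subunit gene of granulosa cells, had 106 and 289 on milrinone 1 and 2, against 8512, 2182, 1992 and 1698 in untreated samples. Fshr, the receptor for follicle stimulating hormone, had 105 and 84.1 on milrinone 1 and 3, against 579, 158, 119 and 145 in untreated samples. Both had too few values for the fit.

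Not all follicle cell markers had lower values in milrinone. The Kitl probe set 1415855_at, for the Kit ligand of granulosa cells, overlapped between the groups, at a difference of -0.08. The Cyp11a1 probe set 1439947_at was at 0.29, although another, 1448804_at, was empty on all milrinone arrays and had 9664, 1008, 1209 and 576 in untreated samples. Has2, a hyaluronan synthase gene of cumulus cells, had 41.5 and 61.6 on milrinone 2 and 4, against 44.8 and 31.2 on untreated 2 and 3 (1418678_at). Ptgs2, a prostaglandin synthase gene, had 35.0 and 23.4 on milrinone 1 and 3, against 22.5 on untreated 1 (1417263_at). The Kitl, Has2 and Ptgs2 values were dim, where the median listed intensity of an array was 284 to 414. Values so low leave little room to see a fall. Of the 23 genes, Amh was empty on all 8 arrays, and 7 more, Amhr2, Cyp17a1, Fst, Npr2, Nr5a1, Star and Tnfaip6, were empty on all milrinone arrays.

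Summed over the follicle cell probe sets that an array listed, the intensity was 3422, 3224, 3063 and 2821 on milrinone arrays 1 to 4, against 81792, 16691, 18355 and 19497 on untreated arrays 1 to 4. With empty cells left out, each sum covers the 9 to 15 probe sets listed on a milrinone array or the 22 to 32 listed on an untreated array, so the sums do not compare the same probe sets. Untreated 1 was the highest for both this sum and Gja1, and milrinone 4 the lowest for both. The order of the other arrays differed. Among untreated arrays the sum was lowest on untreated 2 and Gja1 on untreated 4. Among milrinone arrays the sum was highest on milrinone 1 and Gja1 on milrinone 2. The milrinone sums came mostly from Nr5a2, with 836 to 1193 (1420410_at), 576 to 915 (1449706_s_at) and 294 to 438 (1456521_at). The order of the milrinone sums therefore says little about the other follicle cell markers. The part of these cells in the Gja1 difference was not tested.

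Of the 21 blood, stromal and endothelial probe sets 3 were fitted, those of Cd68, Kdr and Tek, of which 0 were called by limma and 0 had an unadjusted p under 0.05. The endothelial receptor gene Kdr had 355 to 456 in milrinone and 391 to 555 in untreated samples, and Tek, another endothelial receptor gene, had 151 to 171 in milrinone and 101 to 193 in untreated samples. The summed intensity of the probe sets listed, again not the same ones on each array, was 585 to 772 in milrinone and 1278 to 12963 in untreated samples. Of the 13 genes, Pecam1 was empty on all 8 arrays, and 6 more, Acta2, Cdh5, Col1a1, Col1a2, Dcn and Lyz2, were empty on all milrinone arrays. Of these, Acta2 had 6339, 276 and 620 on untreated 1, 2 and 3 (1416454_s_at) and Dcn had 1927, 160 and 335 on the same arrays (1449368_at). The part of these cells was not tested either. The 18 oocyte probe sets summed to 180884 to 194281 in milrinone and 177109 to 206760 in untreated samples, with 0 of 18 called by limma and 0 at an unadjusted p under 0.05. Untreated 1 was lowest and untreated 2 highest for both the oocyte sum and Gja4. The order of the other arrays differed, and milrinone 4 had the highest oocyte sum but the lowest Gja4 of its group.

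**Figure D4:**
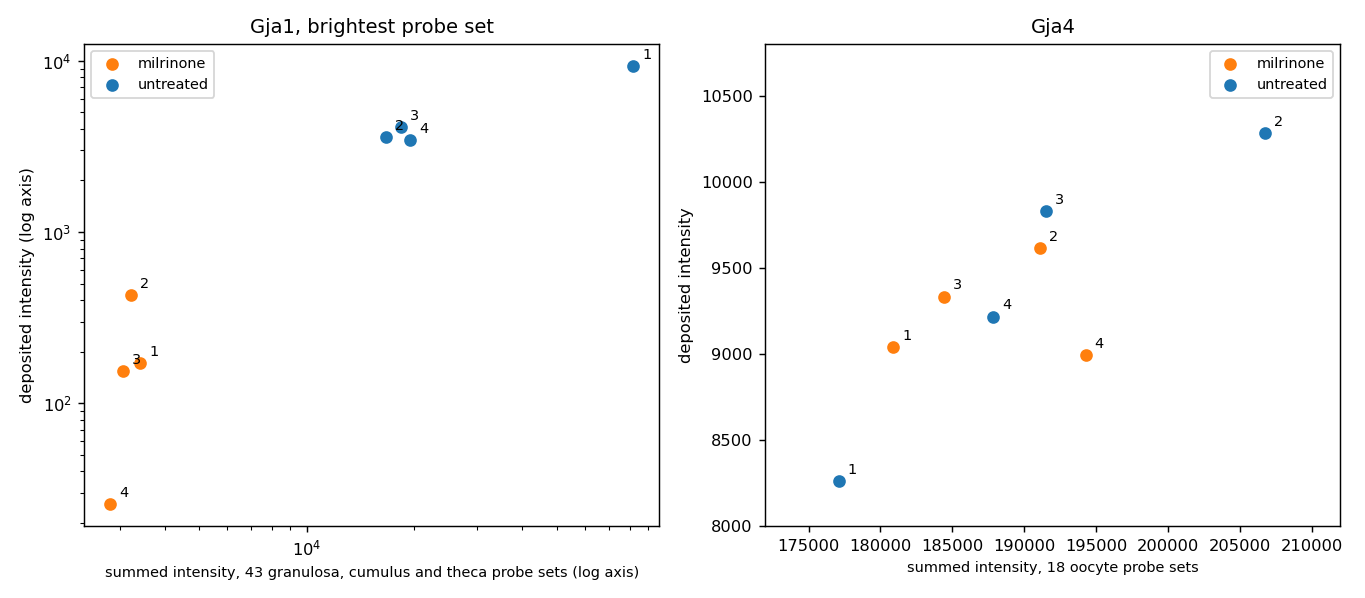
Left, intensity of the brightest Gja1 probe set against the summed intensity of the listed ones among 43 granulosa, cumulus and theca probe sets (both log axes). Right, intensity of Gja4 against the summed intensity of 18 oocyte probe sets (linear axes that do not start at 0). Each point is 1 array, numbered by its replicate. In the left panel the milrinone arrays reach at most 426 for Gja1 and 3422 for the sum, and the untreated arrays start at 3430 and 16691, and in the right panel the groups overlap.

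The genes whose profile over the 8 arrays came closest to that of Gja1 were found as those with the smallest root mean square difference of log2 values, each profile centred on its own mean, among the brightest probe sets of 8386 genes listed on all arrays. They were Ctsl, a lysosomal cathepsin gene, at 1.01, Tmem86a, which encodes a lysoplasmalogenase, at 1.31, Gm2a, the GM2 ganglioside activator gene, at 1.31, Adh1, an alcohol dehydrogenase gene, at 1.35, the aldo-keto reductase gene Akr1cl at 1.36 and the glutathione transferase gene Mgst1 at 1.51. A gene whose brightest probe set had an empty cell, such as Grem1 or Inha, could not enter the list. The median of all candidates was 2.68, and another probe set of Gja1 itself, 1438650_x_at, was at 0.69. Ctsl had 115, 118, 62.2 and 85.9 in milrinone, against 5270, 1555, 1075 and 762 in untreated samples. For all 6 the milrinone arrays lay below the untreated ones, with differences from -3.90 for Ctsl to -2.49 for Mgst1, and untreated 1 was the highest. Of the 6, Ctsl was called (limma adjusted p = 0.0129) and the others were not. Among all fitted probe sets 2.74% were lower without overlap and 0.117% were called lower. The 6 were picked on these same arrays for likeness to Gja1, so these traits add no support to the Gja1 difference.

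**Figure D5:**
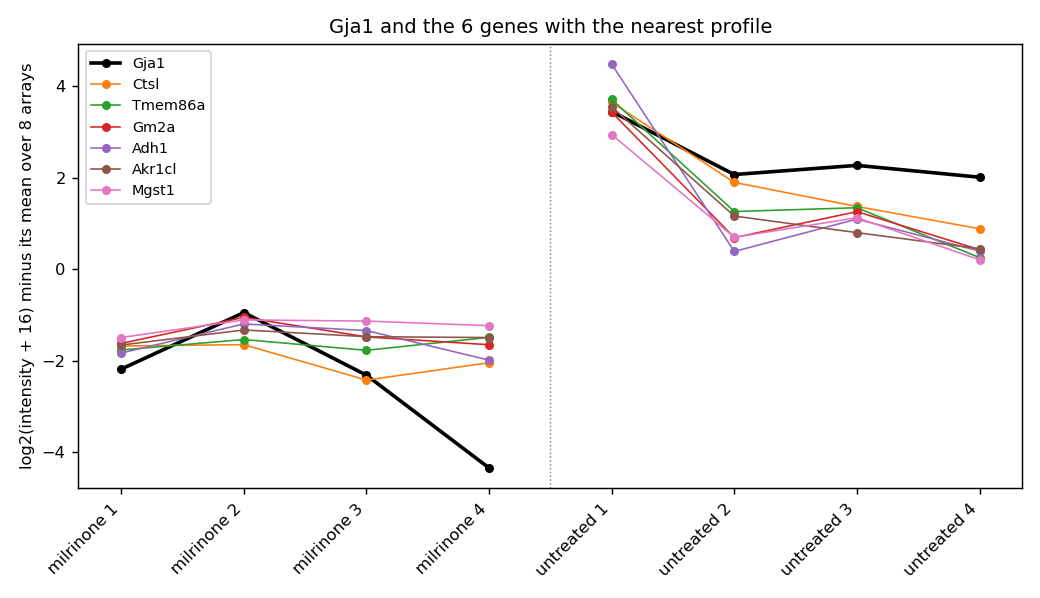
Profiles of Gja1 (black) and the 6 genes nearest to it, as log2(intensity + 16) minus the mean over the 8 arrays, on milrinone and untreated arrays. Lines join the arrays of a group for reading only. All 7 profiles are lower on the milrinone arrays and highest on untreated 1.

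The genes nearest to Gja4 were Uchl1, Cct5, Glrx5, Mrpl24, Fbxw24 and Fbxw18, at 0.03 to 0.05, where the median of all candidates was 0.21. Like Gja4 they differed little between the groups, by -0.07 to 0.02, and 0 of the 6 were called by limma. Uchl1, a ubiquitin hydrolase gene abundant in oocytes, had 10081, 11423, 10638 and 10367 in milrinone, against 9218, 11680, 11037 and 10130 in untreated samples. A flat profile is near to every other flat profile, so this list says little that is particular to Gja4.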

How the data were processed

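Per the labels' protocols, RNA was extracted with a Stratagene kit and biotinylated cRNA was hybridised to 1-colour arrays, 4 milrinone and 4 untreated. The deposited values are the authors' intensity per probe set on a linear scale. The sources used here give neither the software and scaling nor the reason for empty cells. The deposited scaling was kept.

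Symbols come from the platform annotation and were brought up to date by Entrez identifier with the RefSeq table (GRCm38.p6). Without controls there were 45037 probe sets, and 34945 of them had 1 symbol, 932 several and 9160 none. Promoter sequences were read from the RefSeq table of the same build. Empty cells stayed empty, and log2(intensity + 16) of probe sets with a value on 3 or more arrays of each group was fitted in R 4.3.3 by the lmFit and trended eBayes functions of limma 3.58.1, with two-sided p-values adjusted by Benjamini-Hochberg over 16288 probe sets. The rule on listed arrays came from an earlier look at these data. The median standard error of a difference was 0.17, and the number of arrays limits the precision. The fit was tested on simulated data. Tables and plots were made with Python 3.11.15 and matplotlib 3.10.9.

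The members and all gene lists were chosen with earlier results of these data known. Named are all 6 members, other connexins and pannexins listed on at least 3 arrays of a group, the 6 partners with the smallest p, and the 6 genes nearest to Gja1 and to Gja4. Tjp1, Cdh1, Cdh2, Cav1 and the marker genes given with values were picked after their values were seen. The 19 alternatives were other pseudocounts, scalings, filters, treatments of empty cells and variance models, a replicate block and leaving out each array.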

Additional observations from a re-analysis of the deposited data

Results flagged for a closer look

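Among 52 groups of 4 arrays examined, 3 had 1 array far from the other 3. Chance picks out about 1 in 20, or 2.6. The groups came from the connexins and pannexins, the partners with the smallest p, the genes nearest to Gja1 and Gja4, and Gja1 minus Gja4. The follicle cell, blood, stromal, endothelial and oocyte markers and Tjp1, Cdh1 and Cdh2 were not examined. The count therefore does not cover them, and whether untreated 1 stood apart in them was not tested. The measure is the gap of the extreme array to its nearest neighbour over the range of the group, set against Dixon's limit for 4 arrays. For Gja1 minus Gja4, untreated 1 was far above the other untreated arrays, at 0.843. For Nedd4, milrinone 3 was far below its group, at 0.833, and untreated 1 far above its group, at 0.931. Untreated 1 was also the array with the highest sum of follicle cell markers.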

How the results depend on the processing

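The Gja1 probe sets kept their direction under all 19 alternatives that gave them a value. For the brightest the difference ran from -5.14 to -4.44 with other settings and from -5.41 to -4.27 when 1 array was left out, and its adjusted p passed 0.05 once, at 0.0527 without milrinone 3. Probe set 1438650_x_at was called under 19 of 19 and 1438945_x_at under 14 of 18. Gja1 minus Gja4 ran from -5.37 to -4.27. As computed, from plain group means, only other pseudocounts, quantile normalization and leaving out an array could move it. Array weights did not enter it, and with them the fitted difference was -4.72 for Gja1 and -0.081 for Gja4. The number of connexin probe sets called was 1 to 3 when an array was left out and 2 to 4 otherwise, 1415800_at joining with empty cells at 0. The median difference of Gja4, Gjb2 and Gjc1 ran from -0.081 to 0.19. Gja4 changed sign to 0.19 with centring on ribosomal protein genes, to 0.026 without untreated 2 and to 0.0039 without untreated 3, in a range of -0.080 to 0.026 when 1 array was left out.

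Over all probe sets, 19 were called, 52 with centring on ribosomal protein genes, 12 over those listed on all 8 arrays, 185 with empty cells at 0, 106 with array weights, and 9 (without milrinone 3) to 69 (without untreated 1) when 1 array was left out. The main fit did not pair arrays by replicate number. In their deviations from the group means, same-numbered arrays correlated at -0.27 to 0.03 and differently numbered ones at -0.18 to 0.28. So few pairs cannot show whether the numbers mark a shared origin. With replicate number as a block, 13 probe sets were called, and 1438945_x_at of Gja1 was at -4.30 with an adjusted p of 0.163.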
